A study of Mus musculus with 12 samples.

Results

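Type I, type III and type V collagen, the lysyl oxidases that cross-link them, and the proteins laid down on or beside their fibres were followed in the developing mouse hard palate. The 10 genes were Col1a1, Col1a2, Col3a1, Col5a1, Col5a2, Lox, Loxl2, Fn1, Postn and Sparc. They were taken by name, with earlier results of these data known, and all 10 were found among the 24391 genes of the count files. The tissue was dissected anterior palate from mice labelled C57BL/6, at embryonic day 14.5 (E14.5) and embryonic day 16.5 (E16.5). At each age 3 control samples, labelled wild type, were set against 3 Shox2Cre; R26RFgf8 samples, called mutant here, which makes 4 groups and 12 samples. In the mutants an Fgf8 transgene in the Rosa26 locus is turned on by Cre expressed from Shox2, so the transgene can be expressed only in cells with a history of Shox2 expression. FGF8 is a secreted growth factor, and the series title states osteogenic cell fate in the anterior hard palate as its subject. Nothing in the labels says whether a sample was 1 embryo or a pool, or that samples came from separate litters, so p-values measure the spread between samples of unstated origin.

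Fibrillar collagens are secreted as procollagens of 3 chains wound into a helix, trimmed outside the cell, and packed side by side into fibrils. Type I collagen, made of chains from Col1a1 and Col1a2, is the main protein of bone matrix, while type III collagen is typical of loose and elastic connective tissue and type V collagen sits in the fibril core and sets fibril diameter. Lysyl oxidases then oxidise lysines so that neighbouring molecules become covalently linked, and palatal bone forms directly in mesenchyme by such matrix being laid down and mineralised.

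The feature that these 5 collagen genes share is a long uninterrupted row of codon triplets whose first codon is glycine, the only residue small enough for the axis of the helix. In the longest open reading frame of each gene's GENCODE M21 mouse transcript this row held 338 triplets in Col1a1, 339 in Col1a2, 344 in Col3a1, 338 in Col5a1 and 339 in Col5a2. It took 69.8% of the Col1a1 codons and 55.2% of those of Col5a1, which has the longest reading frame of the 5 at 1838 codons. The first 72 bases of each row are shown 5′ to 3′, to set side by side the repeat that defines these genes. Capitals mark the first codon of each triplet, and the rows begin at base 502 (Col1a1), 289 (Col1a2), 490 (Col3a1), 1675 (Col5a1) and 631 (Col5a2) of the coding sequence.
Col1a1: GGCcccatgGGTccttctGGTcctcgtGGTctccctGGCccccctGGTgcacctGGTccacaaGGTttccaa
Col1a2: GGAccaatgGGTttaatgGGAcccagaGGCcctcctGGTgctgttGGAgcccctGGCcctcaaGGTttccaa
Col3a1: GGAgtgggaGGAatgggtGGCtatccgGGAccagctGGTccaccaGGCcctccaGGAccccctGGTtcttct
Col5a1: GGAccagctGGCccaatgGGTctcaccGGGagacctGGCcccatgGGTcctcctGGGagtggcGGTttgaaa
Col5a2: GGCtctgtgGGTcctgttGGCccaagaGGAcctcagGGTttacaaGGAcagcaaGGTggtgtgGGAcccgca
Each capital codon starts with GG, and the bases between them differ from gene to gene.

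Libraries held 76417891 to 125996587 counts. Fgf8 was at 0.249 to 0.423 CPM (counts per 1000000, scaled by TMM factors) in the E14.5 controls and at 10.5 to 11.1 in the E14.5 mutants. At E16.5 it was at 0.257 to 0.462 CPM in controls and 14.0 to 17.8 in mutants, so the transgene followed the labels in all 12 libraries. Other differences between the groups did not follow genotype. The E14.5 controls stood apart in Ctnnb1 (beta-catenin), at 212 to 262 CPM against 1567 to 1873 CPM in the other 9 libraries, and in Foxp1 and Tgfbr2, which were also lower there than in any other library. Xist, expressed from the inactive X chromosome of females, was 1.60-fold lower in mutants at E14.5 and 2.26-fold higher in mutants at E16.5, so the groups differed in this marker of embryo sex and not in genotype alone. All 12 libraries also held counts of the Y-linked gene Ddx3y, at 14.4 to 98.3 CPM, beside Xist at 341 to 914 CPM. Each library thus held reads of markers of both sexes, though the labels do not state pooling. Among the E16.5 mutants, libraries 1 and 3 held neuron markers (6 of 6 genes detected, summed 194 and 108 CPM) and retina markers (7 of 7 detected, 130 and 81.8 CPM). Library 2 held 30.3 and 17.0 CPM of them, and the E16.5 controls 19.2 to 23.0 and 35.4 to 39.6 CPM. Differences of the E14.5 controls in these respects cannot be told apart from genotype or age in any comparison that uses them.

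At E14.5, 8 of the 10 genes were lower in the mutants and 0 were higher, by edgeR's quasi-likelihood test with Benjamini-Hochberg adjustment over all genes and a threshold of 0.05. Of all 16650 genes tested 4.57% were called lower and 2.95% higher. At E16.5, 5 of the 10 genes were lower and 0 higher, against 15.7% and 12.2% of 17169 genes. Also with DESeq2 and with limma-voom, and at an unadjusted p under 0.05, 0 of the 10 were higher at either age. The median log2 fold change of the 10 was -0.75 at E14.5 and -0.40 at E16.5, beside 0.01 over all genes tested at each age. Control and mutant ranges were apart, with every mutant library lower, for 9 of the 10 at E14.5 (14.0% of all genes) and for 5 at E16.5 (24.5%). In bulk tissue, fewer cells of a type and less RNA per cell cannot be told apart.

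**Figure D1:**
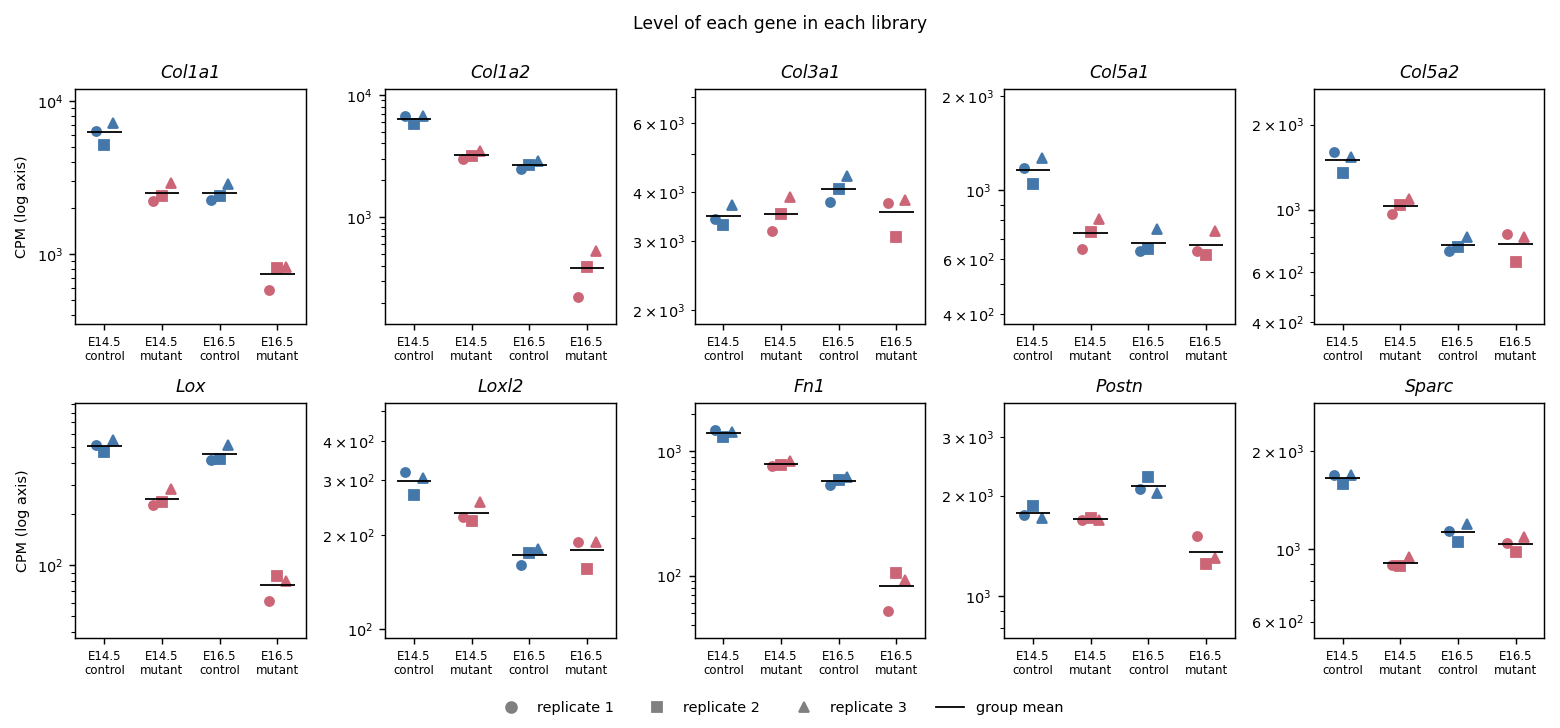
Level of each of the 10 genes in CPM (log axis) in every library, by group, with replicates 1 to 3 as circles, squares and triangles and the group mean as a line. Col1a1, Col1a2, Lox and Fn1 step down with genotype at both ages, whereas Col3a1 stays between 3071 and 4395 CPM in all 12 libraries.

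Both chains of type I collagen fell in the mutants at both ages. Col1a1, which encodes the chain present in 2 copies per molecule, stood at 6389, 5190.1 and 7211 CPM in E14.5 control replicates 1 to 3 and at 2232, 2414 and 2930.3 in the mutants. At E16.5 the controls held 2266, 2415 and 2891 CPM and the mutants 579, 807 and 822. The groups did not overlap at either age, and E14.5 mutants lay at about the level that controls reached at E16.5. Col1a1 was 2.48-fold lower at E14.5 (-1.31 as a log2 fold change, with SE 0.13 and adjusted p = 0.000178) and 3.38-fold lower at E16.5 (-1.76, SE 0.14, adjusted p = 4.75e-05).

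Col1a2, which encodes the single α2 chain, stood at 6658, 5742 and 6675 CPM in E14.5 controls and at 2997, 3159 and 3484 in E14.5 mutants. It stood at 2488, 2643 and 2889 CPM in E16.5 controls and at 221, 392 and 526 in E16.5 mutants. At each age every mutant was below every control. The fall was 1.98-fold at E14.5 (-0.98, SE 0.08, adjusted p = 5.48e-05) and 6.94-fold at E16.5 (-2.79, SE 0.27, adjusted p = 0.000127). Mutant libraries 1 and 3 at E16.5, those with neuron and retina markers, were the lowest and the highest for Col1a2, and without both the log2 fold change was -2.76. In the authors' deposited table, made with DESeq2, the Col1a2 log2 fold change was -0.92 at E14.5 and -2.32 at E16.5. Together the type I genes took 1.26% ± 0.14 (SD, n = 3) of all counts in E14.5 controls, 0.587% ± 0.053 in E14.5 mutants, 0.504% ± 0.044 in E16.5 controls and 0.112% ± 0.026 in E16.5 mutants.

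Col3a1, the single gene of type III collagen, showed no difference past the threshold at either age. It was at 3425, 3307 and 3708 CPM in E14.5 controls and at 3178, 3510.5 and 3900.0 in the mutants, with overlapping ranges. The 95% interval of its log2 fold change there ran from -0.16 to 0.20 around 0.02 (adjusted p = 0.913). At E16.5 controls held 3771, 4073 and 4395 CPM and mutants 3765, 3071 and 3826, and the estimate was -0.17 (interval -0.41 to 0.06, adjusted p = 0.242). That result depended on the mutant libraries with neuron and retina markers: with only mutant library 2 left, Col3a1 was lower in the mutant (-0.40, adjusted p = 0.0378), the lone library being assumed to vary like the controls.

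Of the type V genes, Col5a1 and Col5a2 were lower in the mutants at E14.5 and not called at E16.5, where their ranges overlapped those of the controls. Col5a1, the α1(V) chain found in all usual forms of type V collagen, was at 1176, 1045 and 1266 CPM in E14.5 controls and 648, 736 and 807 in mutants. At E16.5 it was at 640.0, 648 and 751 CPM in controls and 637, 620 and 740.1 in mutants. Ranges were apart at E14.5 and almost coincided at E16.5. The log2 fold change was -0.67 (SE 0.09, adjusted p = 0.00182) at E14.5 and -0.01 (interval -0.22 to 0.21, adjusted p = 0.972) at E16.5.

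Col5a2, the partner α2(V) chain, followed the same course. Its levels were 1602, 1344 and 1532 CPM in E14.5 controls and 962, 1042 and 1091 in E14.5 mutants. At E16.5 they were 716, 741 and 800.2 CPM in controls and 819, 655 and 799 in mutants, where mutants lay on both sides of the controls. It fell by 0.53 on the log2 scale at E14.5 (SE 0.08, adjusted p = 0.00267) and was at 0.04 (interval -0.20 to 0.27, adjusted p = 0.826) at E16.5. Col5a2 and Col3a1 are direct neighbours on opposite strands of mouse chromosome 1 with 0 annotated genes between them, and only Col5a2 was called at E14.5.

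Of the cross-linking enzymes, Lox fell at both ages, and Loxl2 was called at E14.5, by a fragile call, but not at E16.5. Lox, lysyl oxidase itself, was at 515, 469.8 and 549 CPM in E14.5 controls and at 226, 236 and 281 in mutants. At E16.5 controls were at 419, 426 and 512 CPM and mutants at 61.5, 86.5 and 80.0. The groups were far apart at E16.5, with 16.8% of the control mean left in the mutants, against 48.5% at E14.5. Lox was 2.06-fold lower at E14.5 (-1.05, SE 0.09, adjusted p = 7.11e-05) and 5.87-fold lower at E16.5 (-2.55, SE 0.13, adjusted p = 7.82e-06), and -2.38 without E16.5 mutant libraries 1 and 3.

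Loxl2, a lysyl oxidase-like enzyme with scavenger receptor domains, was at 318, 268 and 305 CPM in E14.5 controls and 228, 222 and 255 in mutants. At E16.5 it was at 160.5, 175 and 180.5 CPM in controls and 189.9, 156 and 189.7 in mutants, with overlap. Its log2 fold change was -0.34 at E14.5 (SE 0.08, adjusted p = 0.0293) and 0.08 at E16.5 (interval -0.14 to 0.30, adjusted p = 0.595). The E14.5 call was lost when control 1, control 3, mutant 1 or mutant 2 was left out (adjusted p 0.0963 to 0.123), while the estimate stayed between -0.32 and -0.29. It was also lost in the fit of all 12 samples (-0.34, adjusted p = 0.0525).

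Fn1, Postn and Sparc encode proteins deposited on or beside collagen fibres, and each took a course of its own. Fn1 encodes fibronectin, the scaffold on which cells first assemble collagen. It was at 1476, 1302 and 1445 CPM in E14.5 controls and 762, 778 and 835 in mutants. At E16.5 controls held 533, 592 and 623 CPM and mutants 52.3, 106 and 91.7, so no mutant was above 106 CPM. Fn1 was 1.78-fold lower at E14.5 (-0.83, SE 0.07, adjusted p = 5.29e-05) and 6.91-fold lower at E16.5 (-2.79, SE 0.22, adjusted p = 4.81e-05), and -2.45 without E16.5 mutant libraries 1 and 3. The authors' deposited table, made with DESeq2, has -2.45 for Fn1 at E16.5 from all 3 mutants. It is to be set beside the -2.79 of all 3 mutants here, not beside the value without libraries 1 and 3.

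Postn encodes periostin, which binds collagen and fibronectin and helps bring the enzyme that activates LOX to them. It was at 1748, 1859 and 1715 CPM in E14.5 controls and 1695, 1713 and 1695 in mutants. The ranges touched without overlapping, yet the log2 fold change was -0.06 (interval -0.18 to 0.06, adjusted p = 0.564). At E16.5 controls were at 2093, 2276 and 2042 CPM and mutants at 1515, 1245 and 1301. All mutants were then lower, by 1.55-fold (-0.63, SE 0.10, adjusted p = 0.00169).

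Sparc encodes osteonectin, a collagen-binding glycoprotein abundant in bone. It was at 1689, 1590.1 and 1691 CPM in E14.5 controls and 893, 889.6 and 946 in mutants, which were 1.82-fold lower (-0.86, SE 0.06, adjusted p = 1.45e-05). At E16.5 it was at 1135, 1056 and 1193 CPM in controls and 1048, 980.2 and 1091 in mutants. The ranges overlapped at that age, with a log2 fold change of -0.09 (interval -0.27 to 0.08, adjusted p = 0.407). Sparc had the smallest adjusted p of the 10 at E14.5 and was not called at E16.5.

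The genotype effects at both ages were compared within 1 fit of all 12 libraries, as the E16.5 effect minus the E14.5 effect. The mutant deficit was larger at E16.5 for 4 genes (12.4% of all genes were called in that direction). These were Fn1 (difference -1.98, SE 0.26, adjusted p = 0.000198), Col1a2 (-1.83, SE 0.31, adjusted p = 0.00111), Lox (-1.53, SE 0.18, adjusted p = 9.67e-05) and Postn (-0.60, SE 0.10, adjusted p = 0.00142). It was smaller at E16.5 for 4 others (9.97% of all genes in that direction), namely Sparc (0.75, SE 0.09, adjusted p = 0.000106), Col5a1 (0.64, SE 0.14, adjusted p = 0.00726), Col5a2 (0.54, SE 0.13, adjusted p = 0.0105) and Loxl2 (0.39, SE 0.13, adjusted p = 0.0479). The genes thus parted into a set whose deficit grew and a set whose deficit shrank. Without E16.5 mutant libraries 1 and 3 the Col5a2 and Loxl2 differences were 0.36 (adjusted p = 0.105) and 0.22 (adjusted p = 0.343). The Loxl2 call was also lost when any of 8 single libraries was left out (adjusted p 0.0626 to 0.118). Col1a1 differed by -0.47 (SE 0.22, adjusted p = 0.154) and Col3a1 by -0.22 (SE 0.14, adjusted p = 0.29), and neither was called. With the replicate number as a block, Col1a1 was called as well (-0.46, adjusted p = 0.0268).

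**Figure D2:**
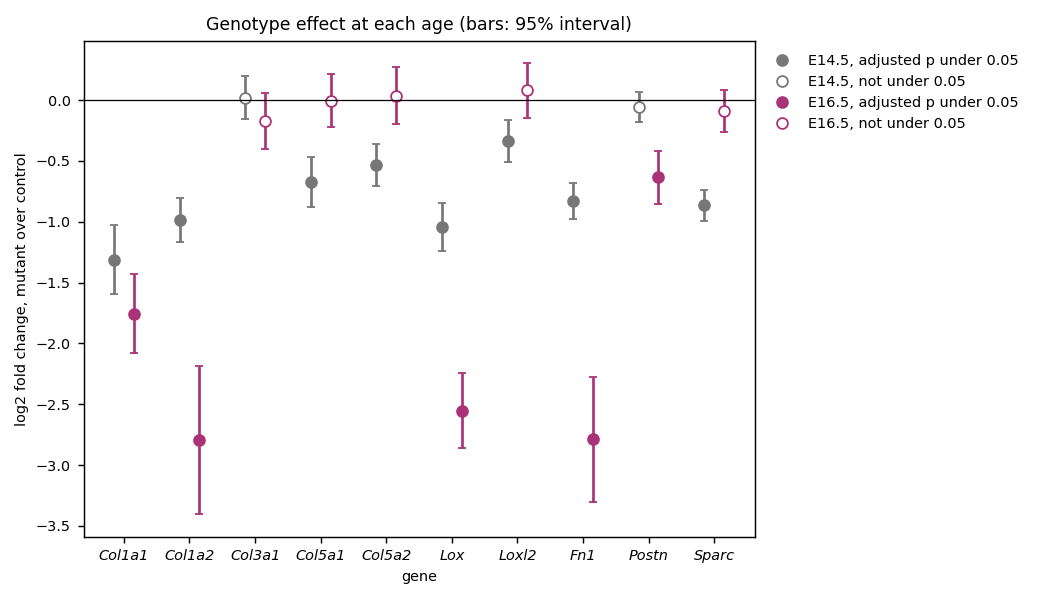
Log2 fold change of mutant over control for each gene at E14.5 (grey) and E16.5 (purple), with 95% intervals from edgeR's fit. Filled points passed an adjusted p of 0.05. Col1a2, Lox and Fn1 lie below -2 at E16.5, and Col5a1, Col5a2, Loxl2 and Sparc lie near 0 at that age.

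Between E14.5 and E16.5 most of the genes declined, and the genotypes differed in which ones. These contrasts reuse the groups of the genotype comparisons and are not independent of them. Summed epithelial markers went from 735 to 1225 CPM in E14.5 controls to 6674 to 7253 in E16.5 controls. In mutants they went from 1252 to 1310 CPM to 4425 to 7505. Macrophage and retina sums also rose with age in controls, while palate mesenchyme, osteoblast, endothelial and smooth muscle sums fell. The part of these shifts in the age contrasts was not tested. In controls 7 of the 10 were lower at E16.5 (32.1% of all genes) and 1, Postn, was higher (34.3%). Control type I levels fell alike, Col1a1 by 1.31 and Col1a2 by 1.25 on the log2 scale, and Fn1 fell by 1.27. Lox did not pass the threshold in controls (-0.18, interval -0.45 to 0.10, adjusted p = 0.235). Col3a1 was at 0.23 (adjusted p = 0.0528) with all E16.5 controls above all E14.5 controls, and it passed when E14.5 control 3 was left out (0.28, adjusted p = 0.0453) or E16.5 control 1 was (0.29, adjusted p = 0.0359). Postn rose by 0.27 (SE 0.07, adjusted p = 0.0057).

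In mutants 7 of the 10 were again lower at E16.5 (24.4% of all genes) and 1, Sparc, was higher (27.2%). The log2 fold change with age was -3.25 for Fn1, -3.08 for Col1a2, -1.78 for Col1a1 and -1.70 for Lox. For Fn1 this left 10.5% of the E14.5 mutant mean, and for Col1a2 11.8%. Postn fell by 0.33 in mutants (SE 0.07, adjusted p = 0.0022), against its rise in controls. With replicates 1 and 2 alone the Postn fall in mutants was not called (-0.28, adjusted p = 0.0543). The Sparc rise of 0.19 (SE 0.06, adjusted p = 0.0206) was not called without E16.5 mutant libraries 1 and 3 (0.13, adjusted p = 0.221). Col3a1 (0.01, adjusted p = 0.94) and Col5a1 (-0.13, adjusted p = 0.297) were not called.

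Because these genes work in fixed partnerships, the ratio of 2 genes' counts within a library was also compared, which needs no scaling between libraries. With 3 libraries against 3, the exact two-sided permutation test cannot give less than p = 0.1, and over the 24 tests (12 ratios at 2 ages) the smallest adjusted value was 0.109. No ratio could therefore pass the threshold. At E14.5, 11 of 12 ratios had mutants apart from and above controls and 1 overlapped. At E16.5, 8 were apart with mutants above, 3 apart with mutants below and 1 overlapped. Most of the ratios had Col1a1 as the denominator, the gene with the largest fall at E14.5. A rise of those ratios at E14.5 follows from that fall, so the counts do not stand for independent results. The share over other pairs of genes was not computed.

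The Col1a2 to Col1a1 ratio was 1.04, 1.11 and 0.926 in E14.5 controls and 1.34, 1.31 and 1.19 in E14.5 mutants. It was 1.10, 1.09 and 0.999 in E16.5 controls and 0.382, 0.486 and 0.640 in E16.5 mutants. Mutants were thus above controls at E14.5 and below them at E16.5, with no overlap at either age (exact permutation p = 0.1 at each). In these mutant libraries the counts of the genes for the chains of 1 molecule did not move in step, though no ratio test could pass the threshold. The control means, 1.02 and 1.06, differed by less than their spread.

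The Col5a1 to Col5a2 ratio, between the chains of type V collagen, overlapped between genotypes at both ages (exact permutation p = 0.2 and p = 0.9). Its mean lay between 0.706 and 0.902 in the 4 groups. The Col5a2 to Col1a2 ratio went from 0.282 ± 0.0054 (SD, n = 3) in E16.5 controls to 2.30 ± 1.2 in E16.5 mutants, where libraries 1 to 3 had 3.70, 1.67 and 1.52. At E14.5 it was 0.235 ± 0.0056 in controls and 0.321 ± 0.0084 in mutants. Col3a1 to Col1a1 went from 0.562 ± 0.066 to 1.40 ± 0.064 at E14.5 and from 1.62 ± 0.090 to 4.99 ± 1.4 at E16.5.

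The Loxl2 to Lox ratio was 0.617, 0.570 and 0.556 in E14.5 controls and 1.01, 0.941 and 0.907 in E14.5 mutants. At E16.5 it was 0.383, 0.411 and 0.352 in controls and 3.09, 1.80 and 2.37 in mutants, a 6.20-fold difference. Lox had the higher count in all 6 control libraries, and Loxl2 in all 3 E16.5 mutants. Lox to Col1a1 moved in opposite directions, from 0.0824 ± 0.0074 to 0.0983 ± 0.0027 at E14.5 and from 0.180 ± 0.0049 to 0.104 ± 0.0054 at E16.5. Fn1 to Col1a1 did so too, from 0.227 ± 0.025 to 0.316 ± 0.029 and from 0.232 ± 0.015 to 0.111 ± 0.020.

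**Figure D3:**
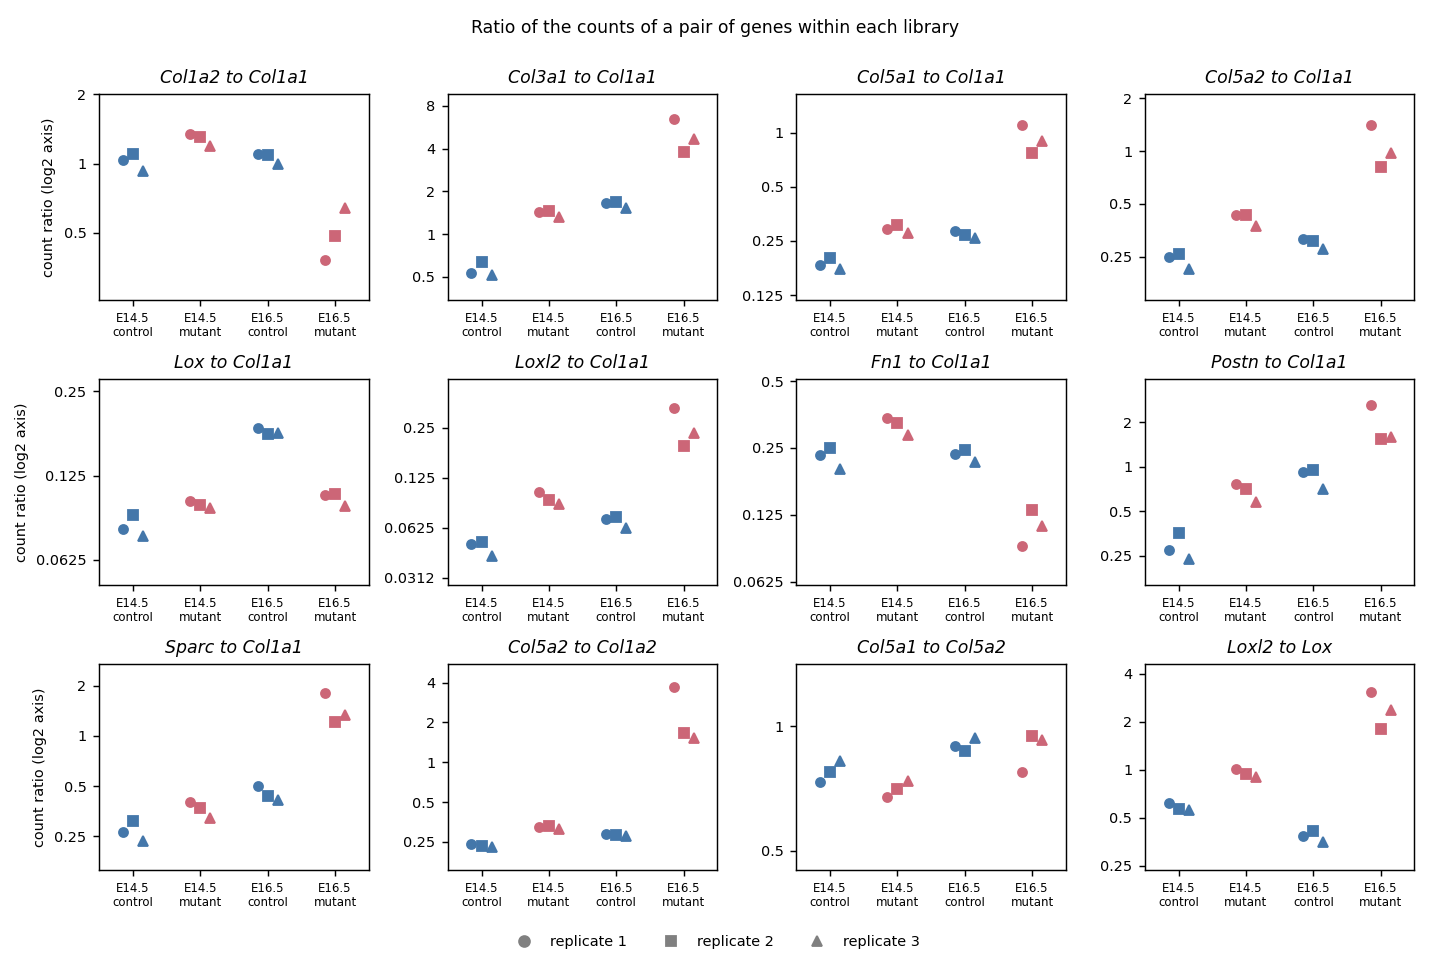
Ratio of the counts of 2 genes within each library (log2 axis), by group, with replicates 1 to 3 as circles, squares and triangles. Col1a2 to Col1a1, Lox to Col1a1 and Fn1 to Col1a1 lie above controls in E14.5 mutants and below controls in E16.5 mutants, while Col5a1 to Col5a2 overlaps at both ages.

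To order the genes by level, CPM were divided by transcript length in kb, from the longest protein-coding GENCODE M21 transcript. The annotation that the authors counted on is not given in the sources used here, so these lengths may not be the ones counted. In E14.5 controls the highest levels were Col1a2 at 1189 ± 99.9 CPM per kb (SD, n = 3) and Col1a1 at 1056 ± 171, which did not differ beyond their spread. Sparc (720.3), Col3a1 (625), Postn (554), Col5a2 (225), Fn1 (169), Col5a1 (138), Lox (108) and Loxl2 (55.9) followed. In E14.5 mutants Col3a1 led at 634 ± 65.0 with Col1a2 at 601 ± 46.4 and overlapping ranges, then Postn at 531 ± 3.3. Col1a1 (426 ± 61.1) and Sparc (396 ± 13.8) also overlapped there.

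In E16.5 controls Col3a1 (733 ± 56.1) and Postn (667 ± 38.4) led with overlapping ranges, and Col1a2 (499.9), Sparc (490.3) and Col1a1 (426) came next, each overlapping its neighbour. In E16.5 mutants Col3a1 (639 ± 75.4) led, and Sparc (452 ± 24.4) and Postn (422 ± 44.4) overlapped behind it. Col1a1 (124 ± 23.0), Col5a2 (114 ± 13.5) and Col1a2 (71.1 ± 28.6) lay close together, with Col5a1 at 79.2 ± 7.8 between the last pair. Loxl2 (33.6 ± 3.7) then stood above Lox (16.0 ± 2.7), and Fn1 (10.01 ± 3.3), the seventh gene in E14.5 controls, was the last of the 10. All 10 genes together took 2.44% ± 0.17 of counts in E14.5 controls, 1.53% ± 0.10 in E14.5 mutants, 1.47% ± 0.080 in E16.5 controls and 0.887% ± 0.078 in E16.5 mutants.

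**Figure D4:**
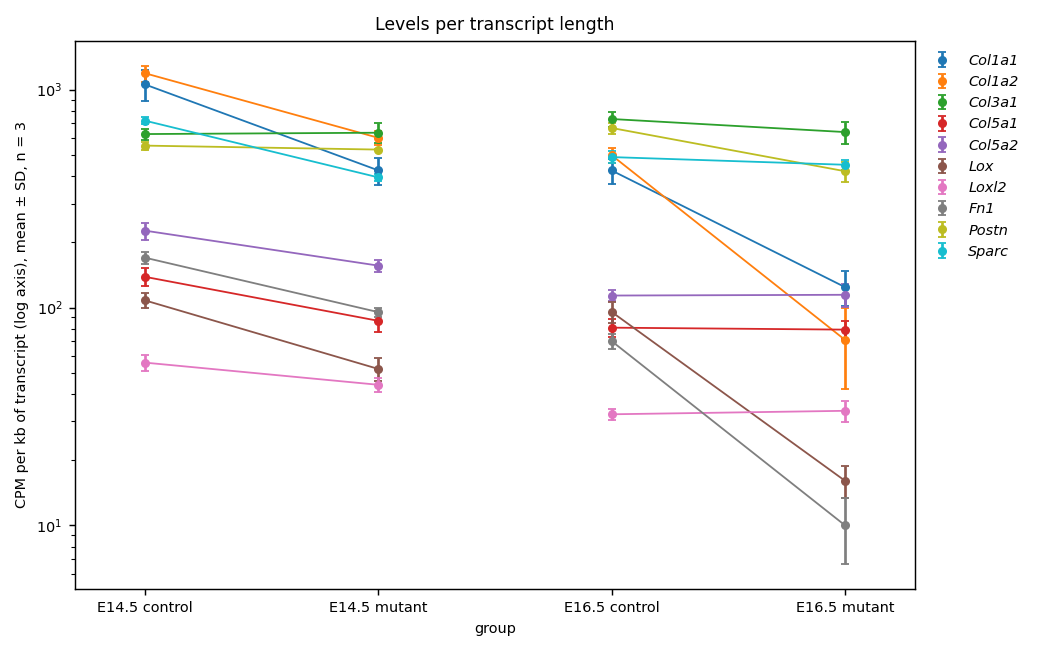
CPM per kb of transcript (log axis, mean ± SD, n = 3) of the 10 genes in each group, with lines joining control and mutant of an age. The Col1a1, Col1a2, Lox and Fn1 lines drop at both ages, and the Col3a1 line stays between 625 and 733.

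Other genes of collagen synthesis and fibre assembly were taken from 9 lists of 78 genes, of which 76 were tested. At E14.5, 31 of the 76 were lower in mutants and 4 higher (median log2 fold change -0.22). At E16.5, 13 were lower and 31 higher (median 0.19). The effect at E16.5 minus that at E14.5 was called positive for 42 and negative for 4. The background shares for these counts are those given above for each comparison. In controls 56 of the 76 were lower at E16.5 than at E14.5 and 11 higher, and in mutants 39 were lower and 15 higher.

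Among 6 other fibrillar collagens, 4 were lower and 1 higher at E14.5, and 2 lower and 2 higher at E16.5. Col11a1 and Col11a2 encode chains of type XI collagen, the cartilage relative of type V, which osteoblasts also express. Col11a2 went from 278 ± 39.8 to 63.5 ± 4.0 CPM at E14.5 (-2.13, adjusted p = 2.4e-06) and from 39.7 ± 3.1 to 8.05 ± 1.9 at E16.5 (-2.29, adjusted p = 1.95e-05). Col11a1 fell by 0.99 and by 1.66 on the log2 scale. Col24a1, a fibrillar collagen expressed in bone, fell by 1.33 at E14.5 and was at 29.1 ± 4.1 CPM in controls and 25.2 ± 3.0 in mutants at E16.5. Col2a1, the collagen of cartilage, rose at E16.5 from 28.1 ± 3.1 to 266 ± 90.0 CPM (3.27, SE 0.22, adjusted p = 1.92e-05). The cartilage markers, a list that holds Col2a1 itself, moved with it, with 4 of 6 higher at each age. Their sum was 89.6 to 112 CPM in E16.5 controls and 445 to 636 in mutants, none was at 0, and their part in the result was not tested.

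Of the 3 other lysyl oxidases, Loxl4 fell at both ages, from 44.5 ± 7.0 to 11.2 ± 1.1 CPM at E14.5 (-1.99, adjusted p = 9.22e-06) and from 10.5 ± 1.3 to 3.91 ± 0.40 at E16.5 (-1.40, adjusted p = 0.000188). Loxl3 rose at E16.5, from 19.8 ± 1.7 to 37.4 ± 4.9 CPM (0.94, adjusted p = 0.000614). Loxl1 was not called at either age, with 127 ± 1.8 CPM in E16.5 controls and 138 ± 6.6 in mutants. The 5 enzymes of the family thus split at E16.5 into Lox and Loxl4, which were lower, Loxl3, which was higher, and Loxl1 and Loxl2, which did not pass the test.

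The 19 genes of procollagen hydroxylation, glycosylation and folding were called 12 lower and 0 higher at E14.5, and 2 lower and 8 higher at E16.5. At E14.5 the largest falls were those of P4ha2, a catalytic subunit of prolyl 4-hydroxylase (-0.64), Fkbp10, a collagen chaperone (-0.60), and P3h1, which hydroxylates a proline needed for folding (-0.51). At E16.5 P3h3 and Crtap, partners in collagen modification complexes, rose by 0.54 and 0.41, while Tmem38b, an endoplasmic reticulum ion channel needed for collagen modification, fell by 0.63. The Crtap rise was not called without mutant libraries 1 and 3 (0.29, adjusted p = 0.0693). The list had 0 genes called higher at E14.5 by edgeR.

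In procollagen secretion 4 of 6 genes were tested, and Creb3l1 was the single one called at either age. Creb3l1 encodes OASIS, a transcription factor that activates Col1a1 in osteoblasts. It went from 167 ± 15.9 to 78.5 ± 5.2 CPM at E14.5 (-1.09, adjusted p = 2.62e-05) and from 48.3 ± 5.0 to 6.67 ± 3.1 at E16.5 (-2.85, SE 0.28, adjusted p = 0.00015). The difference between its effects was -1.78 (adjusted p = 0.00151).

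Of 8 genes of procollagen trimming, 4 were lower at E14.5 and 4 higher at E16.5. Pcolce2, an enhancer of procollagen C-proteinase, was lower at E14.5 (25.3 ± 3.2 against 10.8 ± 0.12 CPM, -1.23) and higher at E16.5 (3.21 ± 0.38 against 6.96 ± 2.4 CPM, 1.15, adjusted p = 0.0102). Without E16.5 mutant libraries 1 and 3 the rise was 0.67 (adjusted p = 0.0572). Adamts2, which removes the N-propeptide, fell by 0.44 at E14.5, and its relative Adamts14 rose by 0.65 at E16.5.

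Of the 9 small leucine-rich proteoglycans that coat fibrils, 2 were lower and 1 higher at E14.5, and 2 lower and 4 higher at E16.5. Among those 4, Kera (keratocan) was not called with the replicate block (1.17, adjusted p = 0.0629) or with limma-voom (1.23, adjusted p = 0.0512). Its call was lost in 9 of 17 alternatives in all, with estimates from 0.40 to 1.53. Mutant libraries 1 to 3 held 7.80, 2.93 and 4.79 CPM of Kera, and the E16.5 controls 1.83 to 2.94. Ogn (osteoglycin) was lower at E14.5 (-0.67), while Bgn (biglycan) was higher at E16.5 (0.74), at 809 ± 120 CPM against 494 ± 23.7. Col12a1, a collagen of the fibril surface, fell by 0.98 at E14.5 and by 0.32 at E16.5, and the latter call was lost without E16.5 control 2 (adjusted p = 0.0741) or control 3 (adjusted p = 0.0657).

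Among 17 other matricellular and fibre proteins 4 were lower and 1 higher at E14.5, and 1 lower and 9 higher at E16.5. The fibrillins Fbn1 and Fbn2, backbone of microfibrils, fell by 0.69 and 0.60 at E14.5. Tnc (tenascin C) rose at E16.5 from 413 ± 30.0 to 718 ± 54.5 CPM (0.82, adjusted p = 0.000228). Of 8 receptors for collagen and fibronectin, the integrin subunit Itga11, a receptor for fibrillar collagen, was lower at both ages (-0.63 and -0.59). Itga1, another integrin subunit of the list, was higher at both ages (0.38 and 0.96), and its E14.5 call was lost in 7 of 17 alternatives. Itga5, a subunit of the fibronectin receptor, rose by 0.49 at E16.5. Of the 8 receptors 2 were lower and 1 higher at E14.5, and 2 lower and 3 higher at E16.5.

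**Figure D5:**
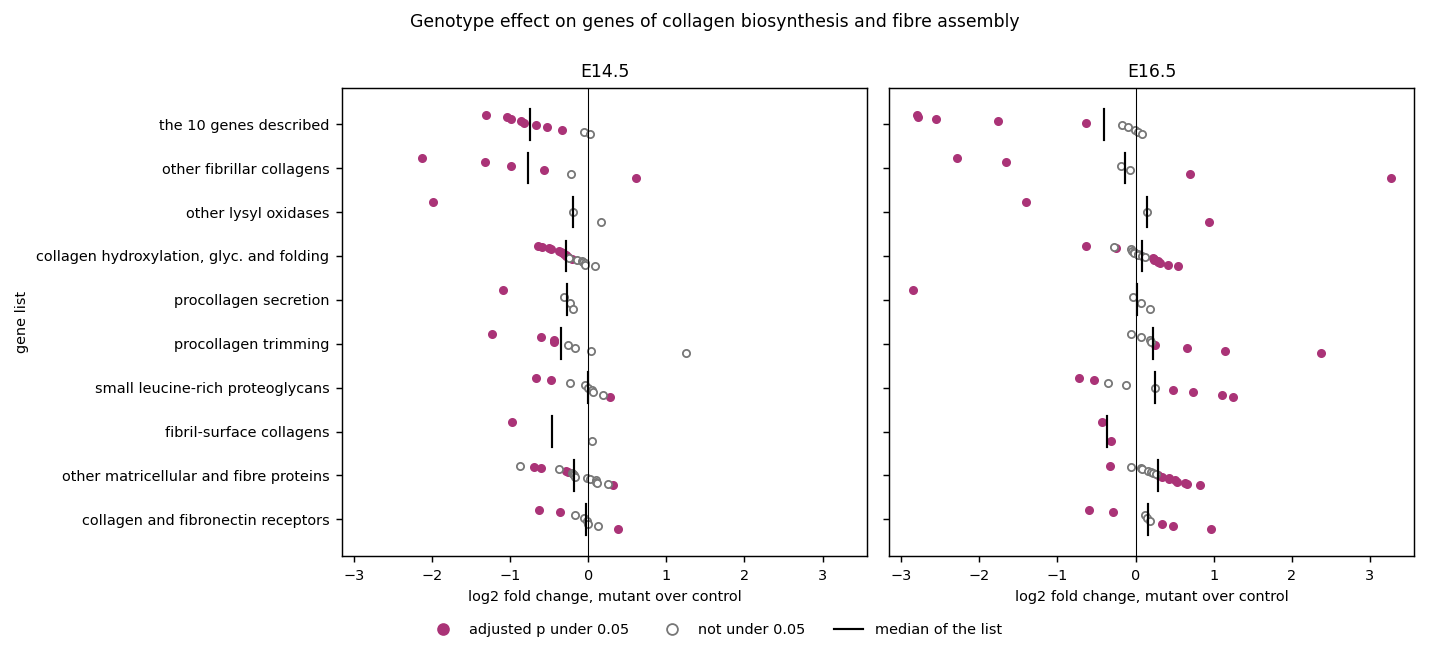
Log2 fold change of mutant over control for the 10 genes and for the tested genes of 9 lists, at E14.5 (left) and E16.5 (right), each point a gene, filled where the adjusted p was under 0.05, with the list's median as a bar. Most called points lie left of 0 at E14.5 (31 of 35 in the lists) and right of 0 at E16.5 (31 of 44).

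Promoter sequence is shown for Col1a2 and Postn, 2 of the 5 genes called at E16.5, because they fell by such different amounts. Their start sites are among those that the RefSeq table of GRCm38.p6 holds. The table matched 5 of the 10 genes in all. Not every chromosome was searched for motifs, so a matched gene not named below may not have been read. Motifs were searched on both strands in the 250 bases before each start. Col1a2 is shown over the 180 bases before its start, chr6:4505438-4505617, plus strand, with a CCAAT box (CCAAT) in capitals. Postn is shown over the 120 bases before the downstream of its 2 listed starts, chr3:54360987-54361106, plus strand, with a TATA box (TATAAA) in capitals.
Col1a2: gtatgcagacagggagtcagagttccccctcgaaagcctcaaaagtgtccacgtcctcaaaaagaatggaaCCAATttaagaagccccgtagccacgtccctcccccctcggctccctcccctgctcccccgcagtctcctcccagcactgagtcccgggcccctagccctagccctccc
Postn: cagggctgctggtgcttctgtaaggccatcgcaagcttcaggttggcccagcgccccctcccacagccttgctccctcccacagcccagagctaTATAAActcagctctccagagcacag
The CCAAT match begins 109 bases before the Col1a2 start, and 33.8% of 32851 promoter windows hold that motif. The TATAAA match begins 26 bases before the Postn start, and 12.4% of windows hold it, that of Col3a1 among them. TGTGGT, the core bound by RUNX factors, is in 14.0% of windows, and was not found in those of Col1a2, Col3a1, Col5a1 or Postn. GGGCGG, the GC box, is in 32.7% of windows, and in those of Col1a2 and Col5a1. These matches describe letters in the windows and were not tested for binding.

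The genes most like Col1a1, Lox and Fn1, other than the 10 themselves, were ranked by Pearson's r of log2 CPM over the 12 libraries, among 11215 genes with a mean log2 CPM of at least 3. The libraries fall into 4 groups, so r mostly follows group means, and it is given as a description. Nearest to Col1a1 were Sgms2 (0.986), Gprc5c (0.985), Ibsp (0.982), Col11a1 (0.981) and Col11a2 (0.980). Nearest to Lox were Tgm2 (0.976), Heatr5a, Vit, Smad5 and Hhip (0.959). Nearest to Fn1 were Creb3l1 (0.994), Tmem119, Gnas, Runx2 and Dlx5 (0.983). Among the 10 themselves, r was 0.995 for Fn1 with Col1a2, 0.987 for Loxl2 with Col5a2 and 0.972 for Col1a1 with Col1a2. Col3a1 reached no more than 0.49 with any of the others, and 0.03 with Col1a1.

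Markers of some of the cell types that the tissue could hold also differed between genotypes, and those of others did not. Over all genes, 4.57% were called lower and 2.95% higher at E14.5, and 15.7% lower and 12.2% higher at E16.5. All 7 osteoblast markers, among them Runx2, Sp7 and Ibsp, were called lower in mutants at both ages. Their summed level was 2698 to 3066 CPM in E14.5 controls and 844 to 883 in E14.5 mutants, then 503 to 630.3 CPM in E16.5 controls and 127 to 138 in E16.5 mutants, and none was at 0. The palate mesenchyme list went the other way, with 3 of 7 markers higher at E14.5 and 5 of 7 at E16.5, from 854 to 998 CPM in E16.5 controls to 1734 to 2660.3 in mutants. Endothelial markers were 5 of 6 lower at E14.5 (498 to 536 against 405 to 436 CPM) and 6 of 6 higher at E16.5 (207 to 222 against 288 to 370.3 CPM). Smooth muscle and pericyte markers were 4 of 6 higher and 1 lower at E16.5 (166 to 185 against 253 to 304 CPM). Epithelial markers summed to 6674 to 7253 CPM in E16.5 controls and 4425 to 7505 in mutants, with library 1 the lowest. Of the 6 epithelial markers 1 was called higher at E14.5 and 1 lower at E16.5. Tendon and fibrous tissue markers were 1 of 5 higher at E14.5 and 2 of 5 at E16.5. Macrophage markers were 1 of 6 lower at E14.5 and 0 were called at E16.5. Skeletal muscle and erythroid markers had 0 called at either age. The part of these cell types in the collagen and cross-linking results was not tested. E16.5 mutant library 1, with the most neuron and retina signal, was also the lowest of the 3 for Col1a1, Col1a2, Lox and Fn1 and the highest for Postn and Col5a2. Without libraries 1 and 3 only mutant library 2 was left. The log2 fold changes of the 5 genes called at E16.5 were then -1.64 (Col1a1), -2.76 (Col1a2), -2.38 (Lox), -2.45 (Fn1) and -0.77 (Postn).

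Strand-specific counting is not given in the sources used here. Col5a1, Lox, Loxl2 and Fn1 overlap an annotated gene on the opposite strand, and reads of such a pair could not be told apart without strand. Col1a2, Col3a1, Col5a2 and Loxl2 overlap an annotated gene on the same strand, which a strand setting would not separate.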

How the data were processed

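Raw counts per gene and sample are the values the authors deposited, made with HISAT2 and featureCounts on build mm9, per the submitters' processing notes. Versions, annotation and strand setting are not given in the sources used here. The authors' deposited comparison tables give log2 fold changes and adjusted p-values from DESeq2. A further 24 per-sample columns of whole-series tables were not used.

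The fits used edgeR 4.0.16 in R 4.3.3 (TMM factors, filterByExpr, quasi-likelihood test, Benjamini-Hochberg over all genes tested, called under 0.05). Genotype was compared on the 6 samples of an age. Age contrasts and the difference between genotype effects came from all 12 samples with 4 group means. A log2 fold change is mutant minus control or later minus earlier, and its SE was derived from the F statistic. CPM are scaled by TMM factors over all 12 samples. Ratios were compared by the exact permutation test (SciPy 1.17.1). DESeq2 1.42.0, limma 3.58.1 (voom) and the other alternatives are in the closing section. The fit was tested on simulated counts with known fold changes.

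The 10 genes, the 9 lists, the marker lists and the alternatives were chosen with earlier results of these data known. All 10 were named, with up to 3 called genes of a list per comparison (largest absolute change, mean log2 CPM of at least 1) and the 5 genes nearest to Col1a1, Lox and Fn1 in pattern. Ctnnb1, Foxp1, Tgfbr2 and Xist were named after their values were seen.

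Groups share replicate numbers. Over 17550 genes, same-numbered control and mutant samples deviated together at E16.5 (correlations 0.105, 0.161 and 0.222). At E14.5 these correlations were 0.0193, 0.0445 and 0.16, which does not pair control with mutant. Same-numbered controls of both ages also deviated together (0.0618, 0.0981 and 0.158). The replicates numbered 3 did so in each pair of groups compared (0.158 to 0.222). The correlations were higher once weakly expressed genes (mean log2 CPM of 1 or less) were dropped, which left 13463. Replicates numbered 3 then reached 0.559 at E14.5 and 0.695 at E16.5 between control and mutant. Between the ages they reached 0.56 in controls and 0.61 in mutants. Replicates numbered 1 and 2 lay between 0.0566 and 0.241 over the same genes. The numbers thus mark more than pairs of control and mutant at E16.5. The effects given in Results come from fits without replicate number, which was tried as a block. Reads carried no molecular identifiers, and no pair of libraries of the same group agreed within sampling noise. Pairs across groups were not checked.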

Additional observations from a re-analysis of the deposited data

Results flagged for a closer look

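The genotype effect differed between E14.5 and E16.5 for 8 of the 10 genes by edgeR's test of the difference itself (adjusted p under 0.05), which is why they are listed. In the direction of a larger deficit at E16.5 the difference of log2 fold changes was -1.98 for Fn1, -1.83 for Col1a2, -1.53 for Lox and -0.60 for Postn. In the direction of a smaller deficit it was 0.75 for Sparc, 0.64 for Col5a1, 0.54 for Col5a2 and 0.39 for Loxl2. All use the E14.5 controls, which stood apart in Ctnnb1, Foxp1 and Tgfbr2.

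For 3 ratios of counts within a library every mutant lay above every control at E14.5 and below every control at E16.5. The log2 difference of mutant minus control was 0.32 and then -1.11 for Col1a2 to Col1a1, 0.26 and then -0.79 for Lox to Col1a1, and 0.48 and then -1.08 for Fn1 to Col1a1. The difference between the ages was not tested for these ratios.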

How the results depend on the processing

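A tested minimum of 2-fold (edgeR's glmTreat) left 0 of the 8 lower genes at E14.5 (1 at an unadjusted p under 0.05), 0 higher and 1 lower for the difference between ages, 0 higher and 1 lower for control age, and 0 higher and 4 lower for mutant age. For the difference between ages, 2 genes were higher instead of 4 with replicates 1 and 2 alone and without E16.5 mutant libraries 1 and 3, and 3 to 4 when single libraries were left out. Without those 2 libraries 0 of the 10 were higher with age in mutants. In controls 2 were higher with age, instead of 1, under DESeq2, the 5 CPM filter, the replicate block, a term for the replicates numbered 3, or only those 6 samples, and 1 to 2 when single libraries were left out. The 5 lower calls at E16.5 held under all alternatives but the 2-fold minimum, which ended that of Postn. In the alternative without mutants 1 and 3 only mutant library 2 was left, so the spread there came from the controls alone. The Loxl2 difference between ages also lost its call with DESeq2 size factors (adjusted p = 0.0531).

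Signs turned for values that were never called. Col3a1 at E14.5 was -0.0095 with replicates 1 and 2 alone and -0.0572 to 0.0868 without single libraries. Col5a1 at E16.5 was 0.0198 with upper-quartile factors and -0.0851 to 0.0657 without single libraries. Col5a2 at E16.5 was -0.192 without mutants 1 and 3 and -0.0357 to 0.1306 without single libraries. Loxl2 at E16.5 was -0.1352 without mutants 1 and 3. Col3a1 with age in mutants was -0.0119 with upper-quartile factors, -0.174 without E16.5 mutants 1 and 3, and -0.0251 to 0.1403 without single libraries. The Col5a1 to Col5a2 difference at E16.5 was 0.0688 without mutants 1 and 3 and -0.0881 to 0.0537 without single libraries. The cause of these turns was not tested.

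Over all genes, calls at E14.5 went from 1252 to 2132 with DESeq2, 3155 with the replicate block, 2938 with a term for the replicates numbered 3, 55 with the 2-fold minimum and 526 to 1412 without single libraries. At E16.5 they went from 4793 to 571 with the 2-fold minimum, 2286 with replicates 1 and 2, 2496 without mutants 1 and 3, and 2781 to 5486 without single libraries. For the difference between ages they went from 3921 to 344, 6055 with the block, 1961 and 2017. For age they went from 11652 to 3289 in controls and from 9059 to 1717 in mutants with the 2-fold minimum. The replicate block changed no call among the 10 genes at either age (8 and 5 lower). With 3 libraries a group, no ratio test can pass 0.05.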
